A study of Mus musculus with 4 samples.

Results

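The metabotropic glutamate receptors Grm2, Grm3, Grm4, Grm5, Grm7 and Grm8 were followed across cell classes of the deep cerebellar nuclei, which carry most output of the mouse cerebellum. They are 6 of the 15632 genes listed for each nucleus in the deposited single-nucleus RNA tables, chosen by name, and each had a row in every table. The tables hold 21494 nuclei in 4 libraries, and a further table holds 480 of these nuclei that the submitters named vglut2. The mice were C57BL/6J offspring of Ai32, a reporter line in which the CAG promoter in the Gt(ROSA)26Sor locus drives COP4*H134R/EYFP, a tagged channelrhodopsin, once Cre has acted. The other parent was Ucn3-Cre (Tg[Ucn3-cre]KF31Gsat/Mmucd) or vGluT2-Cre (Tg(Slc17a6-icre)1Oki), in which Cre is driven by the urocortin 3 gene or by the gene of the vesicular glutamate transporter Slc17a6. The labels give female and 3 months for Ucn3-Cre replicate 1, and male and 3 months for replicate 2. They give male and 2 months for vGluT2-Cre replicate 1, and female and 2.5 months for replicate 2. Nuclei of Ucn3-Cre replicate 1 were extracted with an iodixanol gradient and those of the other libraries with a sucrose cushion. No sorting of nuclei by the reporter is recorded, so a library holds the cells of the dissected tissue and the lines differ in genotype and age together. By its title the series asks how a glutamatergic subpopulation here bears on satiation.

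Metabotropic glutamate receptors are G protein-coupled receptors that sense glutamate outside the cell. Group I, to which Grm5 belongs, couples through Gq to phospholipase C and calcium release. Group II (Grm2 and Grm3) and group III (Grm4, Grm7 and Grm8) couple through Gi and Go, which lower cyclic AMP, and are known as presynaptic brakes on transmitter release. Grm3 is also known from glia, and Grm5 from immature glia and from the postsynaptic side of excitatory synapses.

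The members lie on 5 chromosomes of GRCm38, the mm10 build, in the GENCODE vM21 annotation, and each is a protein-coding gene. Grm5 (ENSMUSG00000049583) spans chr7:87584168-88134907 on the plus strand. Grm2 (ENSMUSG00000023192) spans chr9:106643095-106656082 and Grm3 (ENSMUSG00000003974) chr5:9485541-9725170, both on the minus strand. Grm4 (ENSMUSG00000063239) spans chr17:27422387-27521403 on the minus strand. Grm7 (ENSMUSG00000056755) spans chr6:110645581-111567230 on the plus strand and Grm8 (ENSMUSG00000024211) chr6:27275119-28135178 on the minus strand. Grm2 is the shortest and the others are 99.0 to 922 kb long, so levels were compared between classes and not between genes. Small RNA and unclassified transcripts annotated inside these genes, such as Mir592 in Grm8 and the antisense gene Gm20387 in Grm7, were not analysed here, and whether counting used strand is not given in the sources used here.

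Grm3 and Grm7 were the members whose levels were high in the same classes, in mural cells, oligodendrocytes and 1 of the inhibitory clusters. Their promoters are shown for that reason, as the 250 bases before the RefSeq transcript start (table build GRCm38.p6), 5′ to 3′, with each CG dinucleotide in capitals.
Grm3 (chr5:9725353-9725602, minus strand): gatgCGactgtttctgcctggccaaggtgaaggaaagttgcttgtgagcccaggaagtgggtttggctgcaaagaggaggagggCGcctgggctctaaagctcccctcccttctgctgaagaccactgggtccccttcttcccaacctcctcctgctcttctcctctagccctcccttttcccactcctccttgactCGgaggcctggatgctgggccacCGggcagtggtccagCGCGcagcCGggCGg
Grm7 (chr6:110645262-110645511, plus strand): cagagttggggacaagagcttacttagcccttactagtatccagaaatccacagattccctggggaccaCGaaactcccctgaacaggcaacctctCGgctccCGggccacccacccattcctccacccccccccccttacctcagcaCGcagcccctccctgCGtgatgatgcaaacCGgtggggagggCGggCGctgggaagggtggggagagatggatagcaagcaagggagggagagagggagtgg
Each window holds 8 CG dinucleotides, against a median of 6 over the 32851 promoters of the table, and 43.0% of these hold 8 or more. The GC content was 62.4% for Grm3 and 62.0% for Grm7. Of the 6 members, 4 had a promoter in the table, and the Grm7 window belongs to the first of its 2 listed starts.

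Depth differed between libraries, with total counts from 9096357 to 19125488 and a median of 1730 to 3206 counts per nucleus. Nuclei were grouped into classes without using the receptors or their pathway genes, and the library was the replicate (n = 4 for each class level). The classes used were 471 glutamatergic nuclei (those of the vglut2 table that were kept), 1091 inhibitory nuclei, 244 nuclei like molecular layer interneurons, 11189 oligodendrocytes, 692 oligodendrocyte precursors, 5028 astrocytes, 744 microglia, 736 endothelial cells and 181 mural cells. The names rest on marker lists, and the endothelial class also carried mural genes. The list behind the inhibitory class was for inhibitory nuclear or Golgi neurons, and these were not told apart. The oligodendrocyte class was not split into newly formed and mature cells. Levels are counts per 1000000 counts of a class and library (CPM), and a class level cannot tell fewer expressing cells from less RNA per cell. Because classes were made from the same counts, p-values between classes are too small. Nothing in the labels says whether a library came from 1 animal or several, so p-values measure the spread between these libraries. The number of cell barcodes found in more than 1 library was 41.

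The receptors divided the classes into different sets. Grm5 was highest in precursors and in the glutamatergic and inhibitory classes, and Grm3 and Grm7 in mural cells and oligodendrocytes. Grm8 was highest in glutamatergic neurons and molecular layer interneurons. Fold changes were tested by edgeR (quasi-likelihood), with p-values adjusted by Benjamini-Hochberg over the genes tested and a threshold of 0.05. Between glutamatergic and inhibitory nuclei 5 of the 5 members tested passed, where 34.4% of the 10857 genes tested did (17.7% higher and 16.7% lower in glutamatergic nuclei). Between molecular layer interneurons and inhibitory nuclei 4 of 5 passed, against 21.9% of genes (10.1% higher and 11.8% lower). Astrocytes differed from oligodendrocytes in 4 of 5 members, where 68.5% of genes passed (34.7% higher and 33.9% lower). Precursors differed from oligodendrocytes in 4 of 5, where 50.1% did (26.4% higher and 23.7% lower). Fibrous and protoplasmic astrocytes differed in 3 of 5 members, against 30.8% of genes (15.6% higher and 15.3% lower). Klk6 and Opalin oligodendrocytes differed in 4 of 5, against 43.2% (21.5% higher and 21.7% lower). With 5 members these counts differ little from the background in the astrocyte and oligodendrocyte comparisons, so the sizes below carry the description. Grm2 had too few counts to be tested in each comparison.

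**Figure D1:**
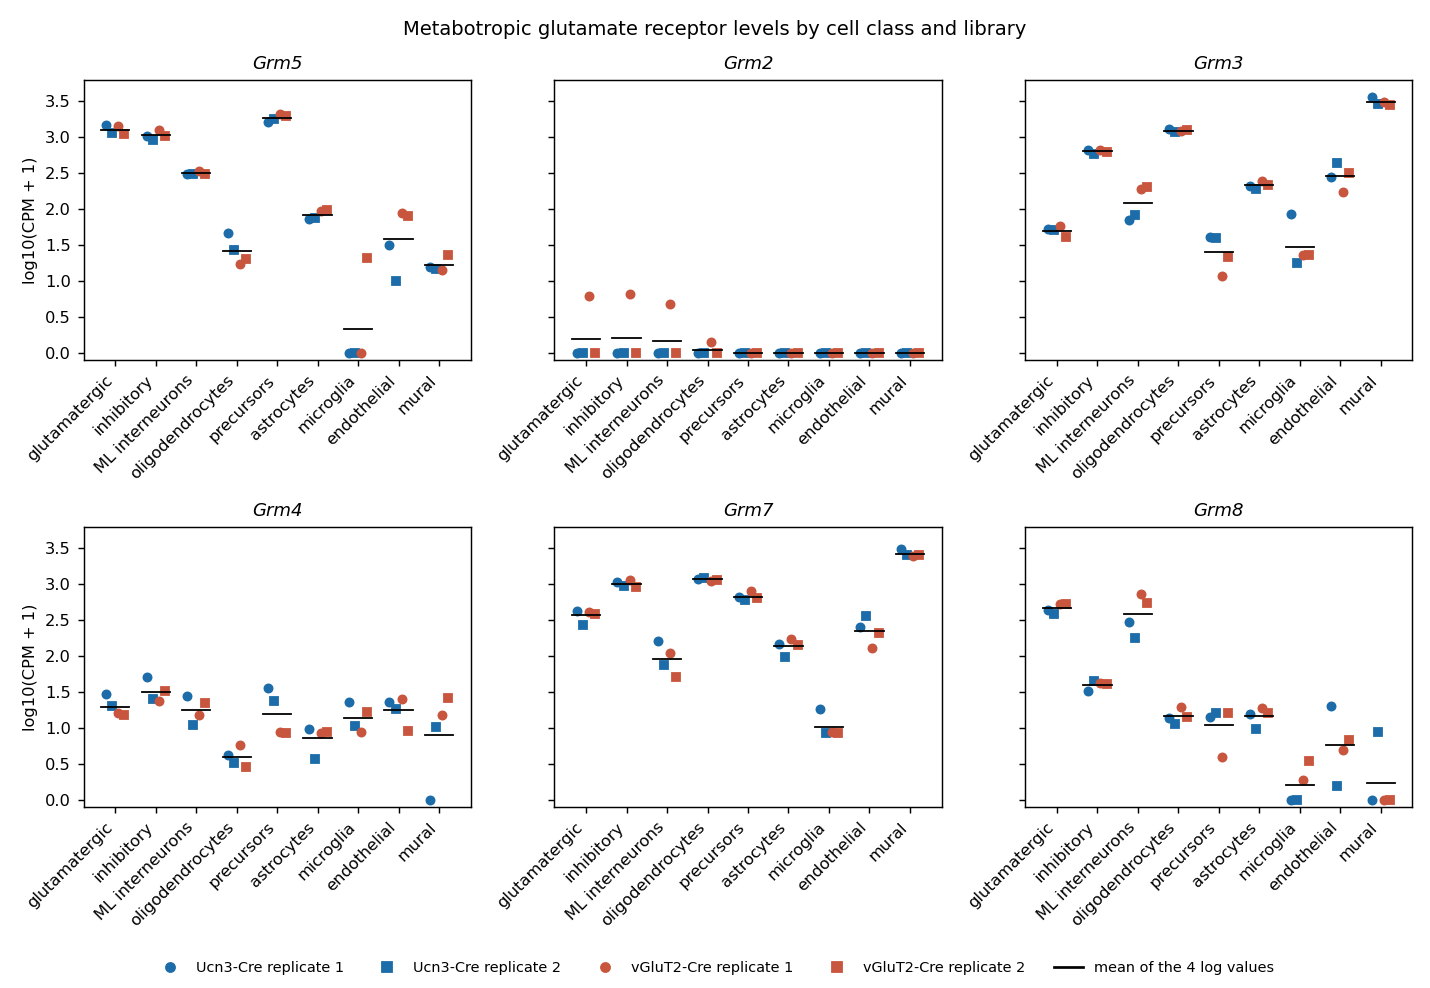
Level of each receptor as log10(CPM + 1) in 9 cell classes, with 1 point per library (blue Ucn3-Cre, red vGluT2-Cre) and a bar for the mean of the 4 log values; ML stands for molecular layer. Grm3 and Grm7 peak in mural cells, Grm5 in precursors and Grm8 in glutamatergic and molecular layer interneuron nuclei, while Grm2 is above 0 in 1 library.

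Grm5, the group I receptor, was highest in oligodendrocyte precursors, with 1636 and 1795 CPM in Ucn3-Cre replicates 1 and 2 and 2102 and 1947 CPM in the vGluT2-Cre replicates. Oligodendrocytes had 46.0, 26.4, 16.2 and 19.3 CPM in the same libraries. The lowest precursor library lay far above the highest oligodendrocyte library, and the log2 fold change was 6.18 ± 0.22 (SE, edgeR adjusted p = 4.6e-14). Grm5 thus marked the precursors of this lineage and Grm3 the oligodendrocytes. Grm3 was lower by 5.65 ± 0.18 on the log2 scale in precursors than in oligodendrocytes (edgeR adjusted p = 1.4e-14). Grm7 was only 0.84 ± 0.10 lower on the log2 scale in precursors (adjusted p = 9.1e-07), with 677 ± 92.7 CPM (SD, n = 4) against 1163 ± 46.0 in oligodendrocytes. A precursor is the dividing cell that gives rise to myelinating oligodendrocytes.

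The glutamatergic and inhibitory classes carried Grm5 broadly. Glutamatergic nuclei had 1487, 1153, 1432 and 1092 CPM and inhibitory nuclei 1052, 915, 1254 and 1047 CPM, in the order Ucn3-Cre replicates 1 and 2 and vGluT2-Cre replicates 1 and 2. The groups overlapped across libraries, but within each library the glutamatergic level was the higher (log2 fold change 0.35 ± 0.07, edgeR adjusted p = 5.1e-05 with the library as block). Without the library block the adjusted p was 0.088. Molecular layer interneurons, small inhibitory cells of the cerebellar cortex that reach the dissection with it, had 316 ± 16.0 CPM (SD, n = 4). Their level was lower than in inhibitory nuclei by 1.80 ± 0.13 on the log2 scale (log2 fold change -1.80, edgeR adjusted p = 3.3e-18). With each nucleus thinned to 1000 counts, a Grm5 count was seen in 79.6% of precursors, 67.5% of glutamatergic nuclei and 62.2% of inhibitory nuclei, before thinning in 96.1%, 99.0% and 95.6%. Microglia, the class with the lowest mean Grm5, had a count in 0.588% of thinned nuclei at a median depth of 1691 counts, against 9453 in glutamatergic nuclei.

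Within the glutamatergic nuclei, 9 sub-clusters were named by their leading genes, and an F test across those sums with at least 5 nuclei called 24.5% of 4857 genes. Each of the 4 members tested passed. Without vGluT2-Cre replicate 1 the test called 793 genes in place of 1192. Grm5 ranged from 946 ± 219 CPM (SD, n = 4) in the Col12a1 sub-cluster to 2214 ± 177 CPM in the Lmx1a sub-cluster (edgeR adjusted p = 4.4e-07). The 4 libraries of the Lmx1a sub-cluster (2113, 2043, 2444 and 2254 CPM) lay above each library of the Col12a1 sub-cluster, whose highest was 1165 CPM. Lmx1a encodes a transcription factor of cerebellar rhombic lip derivatives. Each sub-cluster overlapped its neighbour in the order of means.

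Grm3, of group II, was highest in mural cells. Mural cells, the contractile cells around small vessels, had 3635, 2902, 3050 and 2785 CPM, from 23, 63, 46 and 49 nuclei. Oligodendrocytes had 1310, 1169, 1204 and 1244 CPM. Inhibitory nuclei had 654, 592, 664 and 632 CPM and glutamatergic nuclei 51.5, 50.6, 58.0 and 39.9 CPM. These 4 classes did not overlap in any library, and the spread over libraries was small beside the steps between them. Endothelial cells (299 ± 108 CPM) and astrocytes (216 ± 24.1 CPM) overlapped, as did glutamatergic nuclei, microglia (36.2 ± 32.0) and precursors (27.4 ± 13.8; SD, n = 4 for each).

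Grm3 was 3.49 ± 0.23 higher on the log2 scale in mural than in endothelial cells and Grm7 3.62 ± 0.23 higher (edgeR adjusted p = 8.8e-08 and 7.9e-08), in a comparison chosen after the levels were seen. Of the 3495 genes tested there, 41.4% passed, and these 2 members were the ones that could be tested. The mural nuclei carried their defining genes, such as Pdgfrb at 2116 to 2840 CPM, Vtn at 6031 to 8413 CPM and Atp13a5 at 4072 to 5379 CPM, while the endothelial gene Cldn5 was at 0 to 62.1 CPM. The endothelial class was mixed: the 7 mural markers summed to 6040, 6416, 2859 and 5149 CPM in it, and its Grm3 level was 276, 435, 173 and 314 CPM. The library with the least mural signal, vGluT2-Cre replicate 1, also had the lowest Grm3 and the lowest Grm7 there, and the part of mural nuclei in the endothelial values was not tested.

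Oligodendrocyte markers had counts in every class, and the receptor levels are set beside them here. The 8 oligodendrocyte markers summed in microglia to 7.89% of their level in oligodendrocytes, and Grm3 in microglia stood at 2.94% and Grm7 at 0.868% of theirs. In astrocytes the markers stood at 5.12%, but Grm3 at 17.5% and Grm7 at 12.1%. In inhibitory nuclei the markers stood at 2.32%, Grm3 at 51.6% and Grm7 at 87.5%. As class means, the astrocyte and inhibitory levels therefore lay above the share that the oligodendrocyte markers had in those classes, and the microglial level lay below it. This does not hold for each sub-type. Grm7 was low in protoplasmic astrocytes, and both genes were low in the inhibitory cluster with Slc6a5, as given below. These sub-types were not set beside the marker share. In precursors the markers stood at 5.75%, Grm3 below them at 2.22% and Grm7 at 58.2%. In glutamatergic nuclei the markers stood at 0.768%, Grm3 at 4.06% and Grm7 at 32.0%, and in mural cells at 9.48%, 251% and 229%. In molecular layer interneurons the markers stood at 5.81%, Grm3 at 11.1% and Grm7 at 8.56%, and in endothelial cells at 16.7%, 24.3% and 20.4%. In these last 2 classes both genes lay above the marker share, but closer to it than in astrocytes. The part of oligodendrocyte RNA in the levels of any class was not tested.

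For these receptors the inhibitory nuclei fell into 2 groups. They came from a cluster of 659 nuclei with Oprk1 and Bcl11a and hardly any Slc6a5 (cluster 9) and from a cluster of 432 nuclei with the glycine transporter gene Slc6a5 (cluster 18). Grm3 was at 1016, 962, 1099 and 1006 CPM in cluster 9 and at 131, 54.0, 65.8 and 63.2 CPM in cluster 18. Grm7 was at 1775, 1571, 1957 and 1500 CPM in cluster 9 and at 32.0 ± 34.0 CPM (SD, n = 4) in cluster 18, with Ucn3-Cre replicate 1 at 82.7 CPM and the other libraries no higher than 18.7 CPM. Each library of cluster 9 lay far above each library of cluster 18 for both genes. The log2 fold changes were 3.90 ± 0.11 for Grm3 and 6.23 ± 0.14 for Grm7 (edgeR adjusted p = 1.2e-36 and 3.4e-40), in a comparison chosen after the levels were seen.

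In that comparison 5 of 5 members passed, where 36.5% of 9523 genes did. Grm5 went the other way, with 838 ± 100 CPM in cluster 9 and 1398 ± 194 CPM in cluster 18 (SD, n = 4, log2 fold change -0.71 ± 0.06, adjusted p = 7.8e-15). The larger sub-clusters kept the split. The 3 larger sub-clusters of cluster 9, led by Prlr (145 nuclei), Foxp2 (284) and Sema3a (184), had 932 to 1107 CPM of Grm3 and 1594 to 1866 CPM of Grm7 on average. The 2 larger sub-clusters of cluster 18, led by Sv2c (120) and Dab1 (272), had 99.4 and 44.5 CPM of Grm3 and 7.68 and 14.4 CPM of Grm7. With each nucleus thinned to 1000 counts, Grm7 was seen in 73.6% of cluster 9 and 4.47% of cluster 18, and Grm3 in 61.5% and 6.70%. The share of Grm7 in cluster 18 was 11.1% in Ucn3-Cre replicate 1 and 1.80% to 2.53% in the other libraries. Cluster 18 also held a sub-cluster of 14 nuclei led by Prr5l, St18 and Aspa. Of these, 7 were in Ucn3-Cre replicate 1, 3 each in both replicate 2 libraries and 1 in vGluT2-Cre replicate 1. Klk6 and Opalin, which name oligodendrocyte sub-types below, were higher in it than in the Sv2c and Dab1 sub-clusters. Cluster 9 held 10 nuclei of a sub-cluster also led by Prr5l. The part of these nuclei in the levels of either cluster was not tested.

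The difference between glutamatergic and inhibitory nuclei therefore depended on which inhibitory cluster was used. Against both clusters Grm3 was lower in glutamatergic nuclei by 3.57 on the log2 scale (log2 fold change -3.57 ± 0.09, edgeR adjusted p = 7.4e-26) and Grm7 by 1.38 (log2 fold change -1.38 ± 0.07, adjusted p = 1.5e-17). Against cluster 18 alone Grm7 was 4.06 higher on the log2 scale in glutamatergic nuclei (adjusted p = 8.7e-24), and Grm3 no longer passed (log2 fold change -0.41, adjusted p = 0.051). Grm5 had a log2 fold change of -0.05 there (adjusted p = 0.69). Molecular layer interneurons had less of both than inhibitory nuclei, with log2 fold changes of -2.17 ± 0.17 for Grm3 and -3.51 ± 0.17 for Grm7 (adjusted p = 4.8e-17 and 3.2e-26).

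**Figure D2:**
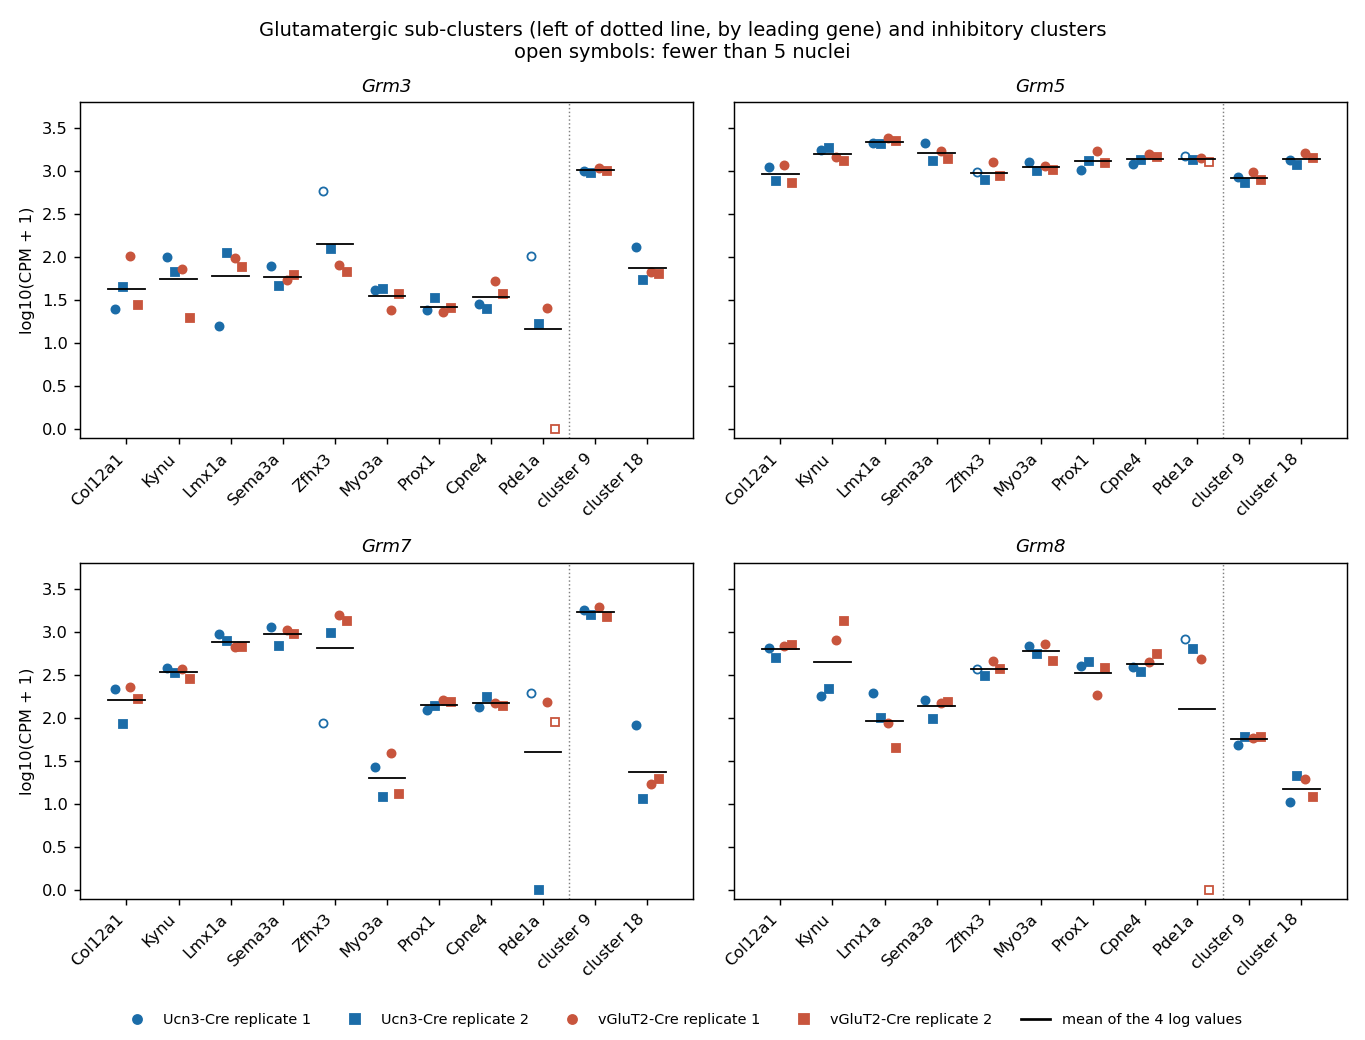
Levels of Grm3, Grm5, Grm7 and Grm8 as log10(CPM + 1) in 9 glutamatergic sub-clusters, named by a leading gene, and in inhibitory clusters 9 and 18, with 1 point per library, open where fewer than 5 nuclei stand behind it, and a bar for the mean of the 4 log values. Grm3 and Grm7 separate the 2 inhibitory clusters, and Grm7 falls to 21.9 CPM in the Myo3a sub-cluster.

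In glia, Grm3 and Grm7 differed between sub-types named here by marker genes. Opalin oligodendrocytes (7061 nuclei) had 1723, 1477, 1639 and 1585 CPM of Grm3 and Klk6 oligodendrocytes (4128 nuclei) 870, 774, 727 and 851 CPM. Grm7 was at 1921, 1815, 1737 and 1755 CPM in Opalin and at 389, 456, 438 and 420 CPM in Klk6 oligodendrocytes. Neither gene overlapped between the sub-types, with log2 fold changes of Klk6 against Opalin of -0.98 ± 0.05 for Grm3 and -2.06 ± 0.05 for Grm7 (edgeR adjusted p = 6.6e-15 and 3.7e-20). Opalin encodes a membrane protein of oligodendrocytes, and Klk6 encodes a secreted protease.

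Finer sub-clusters widened the range of Grm7. It was at 2273 ± 137 CPM in an Opalin sub-cluster of 3315 nuclei, where it was among the 10 leading genes although it took no part in the clustering. It was at 1441 ± 50.7 CPM in another Opalin sub-cluster of 3583 nuclei, at 862 ± 107 CPM in the Klk6 sub-cluster with Enpp6 (2141 nuclei) and at 63.0 ± 18.9 CPM in the Klk6 sub-cluster with Art3 and Dlc1 (1987 nuclei; SD, n = 4 for each). Grm3 ran in the same order, with 1738 ± 120, 1555 ± 84.4, 1232 ± 90.4 and 446 ± 36.7 CPM. The range of Grm7 over these 4 sub-clusters was wider than that of Grm3, which was not tested. Grm5 was low in both sub-types and lower in Klk6 (13.8 ± 9.19 against 38.4 ± 18.8 CPM, log2 fold change -1.48 ± 0.17, edgeR adjusted p = 1.4e-07 with the library as block, 0.074 without it). Grm8 was at 19.9 ± 5.61 against 8.49 ± 3.22 CPM (log2 fold change 1.34 ± 0.21, adjusted p = 1.4e-05).

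Astrocytes split the pair. Fibrous astrocytes (1578 nuclei, with Gfap and Cd44, as in white matter) had 465, 345, 507 and 433 CPM of Grm7, and protoplasmic astrocytes (3247 nuclei, with Gria1 and Slc7a10) had 30.4, 5.87, 32.5 and 29.9 CPM. The lowest fibrous library lay far above the highest protoplasmic one, with a log2 fold change of 4.02 ± 0.12 (edgeR adjusted p = 8.2e-32). Grm3 was nearly level, at 192, 183, 223 and 153 CPM in fibrous and 217, 189, 253 and 245 CPM in protoplasmic astrocytes. Its libraries overlapped, and the log2 fold change was -0.45 ± 0.08 (adjusted p = 1.2e-05 with the library as block, 0.058 without it). Grm5 went the other way from Grm7, at 27.4 ± 5.60 CPM in fibrous and 109 ± 17.5 CPM in protoplasmic astrocytes (SD, n = 4, log2 fold change -2.20 ± 0.13, adjusted p = 1.0e-19). Thus Grm7 was higher in fibrous and Grm5 in protoplasmic astrocytes, and Grm3 was in both. The protoplasmic Grm5 level was still far below that of precursors.

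As a class, astrocytes had less Grm3 and Grm7 than oligodendrocytes, with log2 fold changes of -2.56 ± 0.09 and -3.11 ± 0.13 (edgeR adjusted p = 8.4e-11 and 3.5e-10). Their Grm5 level was higher, at 83.9 ± 12.1 against 27.0 ± 13.4 CPM (SD, n = 4, log2 fold change 1.73 ± 0.23, adjusted p = 2.5e-05). With each nucleus thinned to 1000 counts, Grm3 was seen in 18.9% of astrocytes and 63.9% of oligodendrocytes, against 3.48% of microglia. Grm7 was seen in 12.5%, 47.2% and 0.238% of them.

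**Figure D3:**
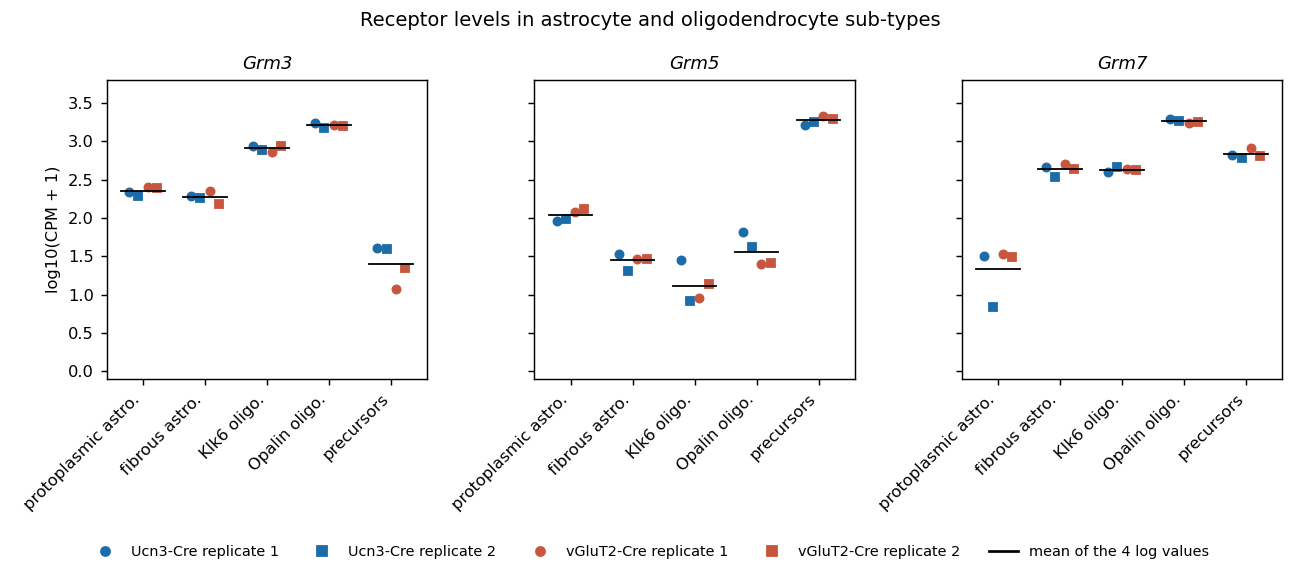
Levels of Grm3, Grm5 and Grm7 as log10(CPM + 1) in 2 astrocyte and 2 oligodendrocyte sub-types and in precursors, with 1 point per library and a bar for the mean of the 4 log values. Grm7 differs between the astrocyte sub-types by 4.02 on the log2 scale, while Grm3 stays near 200 CPM in both.

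Grm2, the other group II receptor, gave no pattern. The tables held counts of it in 35 nuclei of vGluT2-Cre replicate 1, and it was listed at 0 in the other 3 libraries. At the rate of vGluT2-Cre replicate 1, 19.4, 34.6 and 40.8 counts would stand in Ucn3-Cre replicates 1 and 2 and vGluT2-Cre replicate 2. A gene listed at 0 in a whole library was not rare: 1806 to 2329 genes were, and 1130 to 1755 of them would have had over 10 counts at the rate of the other libraries. In the library that counted it, Grm2 was at 5.59 CPM in inhibitory nuclei, 5.21 in glutamatergic nuclei, 3.82 in molecular layer interneurons and 0.438 in oligodendrocytes. No level of Grm2 was therefore read from a listed 0.

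In group III, Grm7 also had the lowest adjusted p of the members tested across the glutamatergic sub-clusters (edgeR F test, adjusted p = 2.2e-25). That value depends on the counts as well as on the size of the differences. The Sema3a sub-cluster (61 nuclei) had 1133, 684, 1052 and 943 CPM and the Lmx1a sub-cluster (45 nuclei) 944, 774, 662 and 666 CPM. The Myo3a sub-cluster (87 nuclei, with Crhr1 and Onecut2) had 25.7, 11.2, 38.5 and 12.1 CPM. The lowest library of the first 2 lay far above the highest of the Myo3a sub-cluster. The Zfhx3 sub-cluster, whose leading genes include the inhibitory markers Slc32a1 and Slc6a5, had 976, 1577 and 1347 CPM in 3 libraries and 85.8 CPM in Ucn3-Cre replicate 1, which had only 2 of its 38 nuclei. The Kynu, Col12a1, Cpne4, Prox1 and Pde1a sub-clusters had 108 to 340 CPM on average. Grm3 was low throughout these neurons, between 25.6 and 75.4 CPM outside the Zfhx3 sub-cluster, and passed the F test narrowly (adjusted p = 0.047). It did not pass without Ucn3-Cre replicate 2 (0.316), without vGluT2-Cre replicate 1 (0.193) or without vGluT2-Cre replicate 2 (0.106).

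Grm8 was the receptor of glutamatergic nuclei and molecular layer interneurons. Glutamatergic nuclei had 439, 387, 530 and 531 CPM and inhibitory nuclei 32.0, 43.5, 41.4 and 39.9 CPM, with no overlap and a log2 fold change of 3.66 ± 0.10 (edgeR adjusted p = 1.2e-25). Molecular layer interneurons had 299, 175, 738 and 540 CPM, which overlapped the glutamatergic range, and were higher than inhibitory nuclei by 3.44 ± 0.20 on the log2 scale (adjusted p = 8.0e-23). In the 6 other classes the mean was 0.846 to 14.0 CPM. Grm8 was seen in 27.9% of glutamatergic and 15.9% of molecular layer interneuron nuclei thinned to 1000 counts, in 3.67% of inhibitory nuclei and in 0.147% of microglia. Inhibitory cluster 9 had 56.0 ± 5.75 and cluster 18 had 14.8 ± 5.23 CPM (SD, n = 4, log2 fold change 1.90 ± 0.22, adjusted p = 1.3e-10). The Prlr sub-cluster of cluster 9 held the highest inhibitory level, 129 ± 36.7 CPM.

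Grm8 also varied among the glutamatergic sub-clusters (edgeR adjusted p = 1.3e-09 for the F test), and in some of them it ran against Grm7. The Lmx1a and Sema3a sub-clusters, where Grm7 was high, had 106 ± 64.1 and 138 ± 29.2 CPM of Grm8. The Myo3a and Col12a1 sub-clusters had 605 ± 121 and 630 ± 94.1 CPM (SD, n = 4 for each), and their lowest libraries (459 and 495 CPM) lay above the highest of the Lmx1a and Sema3a sub-clusters (195 and 161 CPM). The 9 sub-clusters are too few and too alike in source for a test of this opposition, which is a description of the sub-clusters just named and not of all. The Kynu sub-cluster had 179 and 215 CPM in the Ucn3-Cre replicates and 797 and 1321 CPM in the vGluT2-Cre replicates, from 12, 10, 24 and 10 nuclei.

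Grm4 was low in every class. Inhibitory nuclei had 50.6, 24.3, 22.5 and 31.5 CPM and glutamatergic nuclei 28.6, 19.5, 15.2 and 14.1 CPM, and the libraries of the 2 classes overlapped. The log2 fold change was -0.63 ± 0.19 (edgeR adjusted p = 0.0097), but the adjusted p was 0.089 without vGluT2-Cre replicate 2, 0.17 with DESeq2 and 0.22 without the library block. Inhibitory cluster 9 had 45.2 ± 21.0 and cluster 18 had 13.4 ± 3.93 CPM (SD, n = 4, log2 fold change 1.57 ± 0.25, adjusted p = 7.0e-07). A sub-cluster of cluster 9 with the granule cell genes Gabra6 and Reln among its leading genes (36 nuclei) stood out at 198 ± 93.0 CPM, and Grm4 is known as a receptor of granule cells. Among glia, Grm4 was 2.32 ± 0.48 higher on the log2 scale in precursors than in oligodendrocytes (adjusted p = 4.7e-04), at levels of 18.1 and 3.06 CPM. The microglial mean lay between these, at 13.7 ± 6.30 CPM (SD, n = 4). Astrocytes had 6.77 ± 2.78 CPM and passed against oligodendrocytes (log2 fold change 1.12 ± 0.30, adjusted p = 0.0052), though not without vGluT2-Cre replicate 2 (0.078), without the library block (0.13) or with counts rounded up (0.63).

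**Figure D4:**
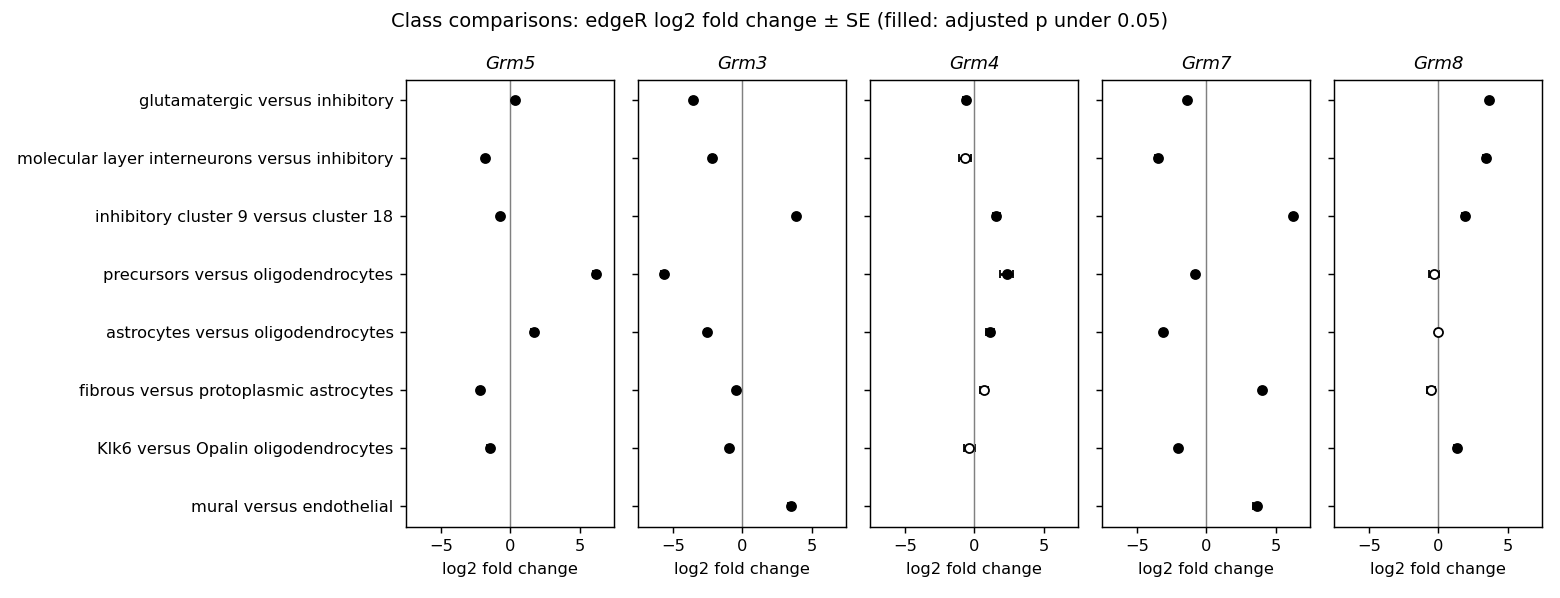
Log2 fold change with its SE for the 5 receptors tested, in 8 comparisons of cell classes (first-named class against second), filled where the edgeR adjusted p is under 0.05. The widest change is that of Grm7 between the inhibitory clusters (6.23), and Grm5 and Grm3 differ in opposite directions between precursors and oligodendrocytes (6.18 and -5.65).

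The Cre lines were compared within classes, 2 libraries against 2. No gene passed in all nuclei, glutamatergic nuclei, inhibitory nuclei, astrocytes or oligodendrocytes with edgeR, so the share of genes called was 0% in each and no member was called. At an unadjusted p under 0.05 the test gave 478, 278, 312, 358 and 333 genes in these classes, and DESeq2 called 245, 8, 5, 78 and 189. On simulated data of the same depth this test recovered 55% of 4-fold and 5% of 2-fold changes in glutamatergic nuclei, so small differences between the lines could not be seen. In glutamatergic nuclei both Ucn3-Cre libraries also had less Grm8 than both vGluT2-Cre libraries, without passing the test. The log2 fold changes there of Ucn3-Cre against vGluT2-Cre ran from -0.31 ± 0.17 for Grm8 to 0.73 ± 0.38 for Grm4. In precursors 0.0484% of genes passed, none of them a member.

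Molecular layer interneurons gave the single call among the members. Grm8 was lower in Ucn3-Cre nuclei (299 and 175 CPM, from 35 and 85 nuclei) than in vGluT2-Cre nuclei (738 and 540 CPM, from 92 and 32 nuclei), and the lines did not overlap. The log2 fold change was -1.56 ± 0.30 (edgeR adjusted p = 0.042), and it was the 1 gene called of 3671 tested (0.0272%). The line difference of Grm8 was larger there than in inhibitory nuclei by 1.67 on the log2 scale (difference of log2 fold changes -1.67 ± 0.33, adjusted p = 7.1e-04) and than in glutamatergic nuclei (-1.36 ± 0.26, adjusted p = 7.6e-04), where 0.0519% of genes (0.0346% higher and 0.0173% lower) and 0.104% of genes passed. The call within the class was lost with DESeq2 (adjusted p = 1.0), with doublets kept (0.91), without Ucn3-Cre replicate 2 (0.82) and without vGluT2-Cre replicate 1 (0.15), and both differences were lost with the replicate number as a block (adjusted p = 1). On simulated data the test of the lines in this class gave 7 false calls, 6.54% of its calls. Grm3 had a log2 fold change of -1.33 ± 0.39 in these interneurons and did not pass (adjusted p = 0.56).

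Markers of the interneurons also varied between these libraries. Kit was at 409 and 550 CPM in the Ucn3-Cre replicates and 676 and 735 CPM in the vGluT2-Cre replicates, and Tfap2b at 94.5 and 175 against 234 and 208 CPM, so both split by line as Grm8 did. Sorcs3 (1150, 972, 1475 and 1180 CPM), Ptprk (740, 394, 890 and 645 CPM) and Prkcd (92.8, 26.7, 120 and 80.1 CPM) were lowest in Ucn3-Cre replicate 2 and highest in vGluT2-Cre replicate 1, as Grm8 was, and Sorcs3 also split by line. Nxph1 (2040, 2917, 2474 and 2262 CPM) and Lypd6 (110, 54.7, 108 and 97.7 CPM) followed neither pattern in full. The 7 markers of the class summed to 4636 and 5089 CPM in the Ucn3-Cre and 5977 and 5208 CPM in the vGluT2-Cre libraries, so the lines split there too. Markers of 2 other classes ran the other way: the 8 oligodendrocyte markers summed to 1718 and 1404 against 980 and 942 CPM, and the astrocyte markers to 370 and 434 against 229 and 296 CPM. Column names of both replicate 2 libraries share a tag whose meaning is not given in the sources used here, and between these Grm8 was at 175 and 540 CPM. Median depth over all nuclei also split by line, at 1730 and 1999 counts per nucleus in Ucn3-Cre and 2336 and 3206 in vGluT2-Cre libraries. As a share of values rounded up, the deposited counts were 92.8% in both Ucn3-Cre and 95.4% and 95.7% in vGluT2-Cre libraries. Ucn3-Cre replicate 1 also differed in its extraction. The part of these marker and technical differences in the Grm8 difference was not tested. Line, age and depth cannot be told apart.

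**Figure D5:**
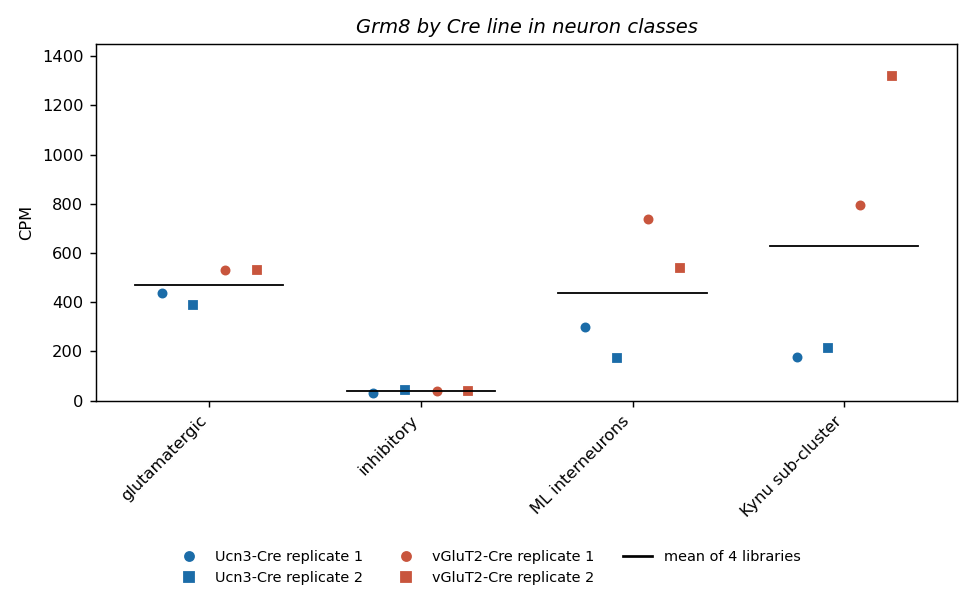
Grm8 level in CPM in 3 neuron classes and in the Kynu sub-cluster of glutamatergic nuclei, with 1 point per library and a bar for the mean. The Ucn3-Cre libraries (blue) lie below the vGluT2-Cre libraries (red) in molecular layer interneurons and in the Kynu sub-cluster, which was picked after its values were seen and was not tested for line.

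Signalling partners were followed in a list of 43 pathway genes, of which 41 were measured (Grm6 and Pick1 were not analysed here). Between glutamatergic and inhibitory nuclei 19 of 36 tested passed, 5 higher and 14 lower in glutamatergic nuclei, where 34.4% of all genes passed (17.7% higher and 16.7% lower), with a median log2 fold change of -0.13 beside -0.01 over all genes. The phospholipase genes Plcb1 and Plcb4, which act downstream of group I receptors, were lower in glutamatergic nuclei (log2 fold changes -2.40 ± 0.08 and -2.06 ± 0.07), as were the scaffold genes Homer3 (-1.99 ± 0.37) and Shank2 (-1.45 ± 0.08). The potassium channel genes Kcnj6 (1.51 ± 0.21) and Kcnj3 (1.35 ± 0.08), which Gi/o-coupled receptors open, were higher. These values are against the pooled inhibitory nuclei, whose clusters themselves differed in Plcb4, Homer3 and Kcnj3, as given next. The list was not tested against each cluster alone.

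Between inhibitory clusters 9 and 18, 25 of 36 pathway genes passed, 14 higher and 11 lower in cluster 9, where 36.5% of all genes passed (median log2 fold change 0.23, -0.02 over all genes). Elfn1, whose protein recruits group III receptors across the synapse, was higher in cluster 9 (4.29 ± 0.60), as were Rgs8 (3.04 ± 0.37) and Plcb4 (2.35 ± 0.07). Kcnj3 (-2.58 ± 0.13), Adcy2 (-2.62 ± 0.16) and Homer3 (-2.81 ± 0.43) were lower. Between molecular layer interneurons and inhibitory nuclei 14 of 33 passed, 7 in each direction, where 21.9% of all genes did (median 0.01, all genes -0.01), led by the scaffold gene Grip1 (-3.08 ± 0.17) and Homer3 (2.95 ± 0.33). Among glutamatergic sub-clusters 11 of 24 passed, where 24.5% of all genes did.

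Astrocytes had 22 genes higher and 8 lower than oligodendrocytes among 38 tested, where 68.5% of all genes passed (34.7% higher and 33.9% lower; median log2 fold change 1.05, all genes -0.02), with Shank2 (8.40 ± 0.20), Grip1 (7.58 ± 0.21) and the phospholipase gene Plcb1 (7.34 ± 0.17) leading, and with the glutamate transporter gene Slc1a2 at 5.91 ± 0.13. Precursors had 24 higher and 8 lower than oligodendrocytes among 39 tested, where 50.1% of all genes passed (median 1.46, all genes -0.02), with Kcnj6 (9.10 ± 0.56) and Shank2 (8.41 ± 0.34) leading. Fibrous against protoplasmic astrocytes gave 12 higher and 11 lower of 33, where 30.8% of all genes passed (median 0.27). Kcnj3 (4.13 ± 0.08) was higher in the fibrous type, as Grm7 was, while Rgs7, a regulator of Gi/o signalling, was lower (-2.61 ± 0.09). Klk6 against Opalin oligodendrocytes gave 7 higher and 15 lower of 31, where 43.2% of all genes passed (median -0.33), with Plcb1 (-3.89 ± 0.28) and the calcium release channel gene Itpr1 (-2.49 ± 0.14) lower. Mural against endothelial cells gave 4 higher and 7 lower of 13, where 41.4% of all genes passed (median -0.97, all genes -0.02), with Shank3 (-5.69 ± 0.64) and Plcb1 (-3.86 ± 0.41) lower. No list gene passed in a line comparison.

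The genes whose class means were most like each member's were ranked by Pearson correlation of log2(CPM + 1) over the 9 classes, among 8526 genes. For Grm3 they were Mast4 (r = 0.874), Sgta (0.867) and Arl2 (0.843). For Grm7 they were Emc10 (0.912), Bcas3os1 (0.911) and Ano4 (0.900). For Grm5 they were Gm45881 (0.975), D630045J12Rik (0.965) and Jazf1 (0.964), and for Grm8 Gm2762 (0.939), Dync1i1 (0.933) and Gm38393 (0.924). Grm4 was most like Acvr2a (0.925), Rbfox3 (0.917) and Magi3 (0.908), of which Rbfox3 is a neuronal marker and one of the granule cell list. The 3 nearest genes to Grm2 (Ube3a, Gm11817 and Pacsin1, r = 0.977 to 0.980) rest on the library that counted it. The 9 points of each correlation share libraries, depth and free RNA, and were read as a description.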

How the data were processed

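The deposited tables hold expected counts per gene and nucleus, made by the authors from 10x single-nucleus libraries with Cell Ranger 3.1.0 and Seurat 3.2 on mm10, per the submitters' processing notes. Of the nonzero values, 97.2% to 98.8% lay within 0.5 below a whole number; the step that lowered them is not given in the sources used here. The receptors and the gene lists were chosen with earlier results of these data known.

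Scrublet marked 42 nuclei (0.195%), too few to rely on, and 947 nuclei in all were removed as likely doublets, leaving 20547. Nuclei were clustered with scanpy 1.11.5 (2000 variable genes, 30 components, Leiden resolution 1, sub-clusters 0.5), without the receptor and pathway genes, and named from marker lists. Glutamatergic nuclei were those of the deposited vglut2 table; 73 nuclei of the same clusters outside it were left out. Counts were summed per library and class of at least 20 nuclei (sub-clusters 5), rounded, and tested with edgeR 4.0.16 (quasi-likelihood, TMM, filter on low counts, library as block between classes) and Benjamini-Hochberg adjustment at 0.05. DESeq2 1.42.0, other scalings, filters, rounding and doublet handling, and leaving out each library, were alternatives. The mural and inhibitory cluster comparisons were added after the levels were seen. The edgeR test was checked on simulated data. False calls made up 22.4% of calls for the lines in all nuclei, 6.54% in molecular layer interneurons and 1.64% in glutamatergic nuclei. They made up 9.80% for astrocytes against oligodendrocytes, 9.76% for glutamatergic sub-clusters and 6.19% for glutamatergic against inhibitory nuclei. For the line difference between interneurons and inhibitory nuclei they made up 0%. Named genes are the receptors, the 3 most alike genes of each by class mean, and pathway genes past the threshold.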

Additional observations from a re-analysis of the deposited data

Results flagged for a closer look

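Among 49 sets of 4 library values of the receptors, 11 had a library whose gap to the nearest other exceeded Dixon's 95% value. In 6 of them the other 3 libraries were at 0, which exceeds it by construction. Of the other 43 sets 5 did, where chance gives about 1 in 20. In vGluT2-Cre replicate 1, Grm2 was at 5.21 CPM in glutamatergic nuclei, 5.59 in inhibitory nuclei, 3.82 in molecular layer interneurons and 0.438 in oligodendrocytes, and it was listed at 0 in the other libraries. In that library Grm5 was also at 340 CPM in molecular layer interneurons, against 307 to 310 elsewhere. Among microglia, Grm3 was at 84.1 CPM in Ucn3-Cre replicate 1 (16.9 to 22.1 elsewhere), Grm7 at 17.5 CPM in the same library (7.49 to 7.84) and Grm5 at 20.3 CPM in vGluT2-Cre replicate 2 (0 elsewhere). Among mural cells, Grm7 was at 3110 CPM in Ucn3-Cre replicate 1 (2490 to 2523 elsewhere), Grm5 at 22.3 CPM in vGluT2-Cre replicate 2 (13.1 to 14.6) and Grm8 at 7.79 CPM in Ucn3-Cre replicate 2 (0 elsewhere).

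The difference of Grm8 between the lines was itself different between neuron classes. The log2 fold change in molecular layer interneurons differed from that in inhibitory nuclei by -1.67 and from that in glutamatergic nuclei by -1.36, both past the edgeR threshold, and both calls were lost without Ucn3-Cre replicate 2 (adjusted p = 0.93 and 0.58) and without vGluT2-Cre replicate 1 (0.36 and 0.62).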

How the results depend on the processing

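Of the counts of genes or members recomputed under an alternative, 338 stayed within 1.5 times the reported count and 52 did not. The 338 include counts of 0 that stayed at 0, as for the members in most line comparisons. This tally therefore does not measure how well the results hold. With DESeq2 the count of genes was 1853 (edgeR 3730) for glutamatergic against inhibitory nuclei, 1081 (1758) for molecular layer interneurons against inhibitory nuclei, 1906 (3290) for the astrocyte sub-types and 1901 (3480) for clusters 9 and 18. Without the library block these were 1808 for glutamatergic against inhibitory nuclei, with 3 members in place of 5, 1651 for astrocytes, 1827 (4687) for the oligodendrocyte sub-types and 2214 for clusters 9 and 18. With cluster 18 as the only inhibitory cluster 2 members passed, and the log2 fold changes of Grm7 (4.06), Grm5 (-0.045) and Grm4 (0.47) changed sign, since the inhibitory samples then hold only that cluster. Leaving out 1 library gave 793 to 1044 genes for the sub-clusters. For the lines, DESeq2 called 245 genes in all nuclei, 8 in glutamatergic nuclei, 5 in inhibitory nuclei, 78 in astrocytes, 189 in oligodendrocytes, 1 in precursors and 0 in molecular layer interneurons. Leaving out 1 library gave 0 to 7 genes in inhibitory nuclei, 2 to 23 genes and 0 to 1 member in molecular layer interneurons, and 27 to 56 genes in precursors. Without a filter on low counts 4 genes passed in molecular layer interneurons and 27 in precursors; with doublets kept 0 genes and 0 members passed in the interneurons; with only genes counted in every library 1 passed in oligodendrocytes and 0 in precursors. For the line difference between interneurons and inhibitory nuclei, 0 genes and 0 members passed with doublets kept, and leaving out 1 library gave 0 to 1 member. Against glutamatergic nuclei, 0 genes and 0 members passed with DESeq2, 3 genes and 0 members with doublets kept, and leaving out 1 library gave 5 to 9 genes and 0 to 1 member. The replicate block left 0 genes and 0 members in both line differences and changed no other count of calls; same-numbered samples did not deviate together (r = -0.0164 over 10558 genes), so the numbers were not taken to pair samples. Both replicate 2 libraries share a tag in their column names and the replicate 1 libraries do not, so the block also pairs libraries that no tag ties. Apart from the settings whose construction shows it, the cause was not tested. Depth limits low members: Grm2 and Grm4 rest on few counts, and mural cells on 181 nuclei.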
